A study of Mus musculus with 6 samples.

Results

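The ephrin, Slit and netrin guidance genes were taken as every row of the count table whose symbol names an Eph receptor, an ephrin, a Slit, a Robo receptor, a netrin, a netrin-G protein, a netrin receptor (Unc5 family, Dcc and neogenin, Neo1) or a repulsive guidance molecule (Rgma and Rgmb). This symbol rule found 43 of 56792 rows; it uses names alone, but the families were chosen with earlier results of these data known. With lenvatinib, 10 of the 29 genes with enough counts for a test were lower, beside 14.9% of all tested rows, and 6 were higher, beside 13.3% of all tested rows. The deepest falls were in low-level receptors and ligands, namely Epha3, Unc5c, Epha1, Epha7 and Efna5, which were 1.66-fold to 3.85-fold lower. Epha3, the deepest, had few counts and entered the test only with the help of the controls, where it was higher. The abundant members Unc5b, Neo1, Ephb6 and Rgmb fell by 1.13-fold to 1.23-fold. Of the 6 genes that rose, Robo1, Ntn1, Ephb3, Ephb4 and Ntn4 did so by 1.09-fold to 1.18-fold, and Ntng2, a low-level gene, by 1.49-fold.

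The libraries came from C2C12, a mouse cell line of wild-type muscle precursors, the myoblasts, which leave the cell cycle and join into multinucleate myotubes once serum is lowered. The lenvatinib group was cultured with 1 µM lenvatinib, an inhibitor of receptor tyrosine kinases of the VEGF and FGF receptor families, and the control group without the drug. Both groups were in medium with 2% horse serum for differentiation, for 4 days per the series title, and each has 3 libraries. Separate cultures for the replicates, a solvent in the controls and the time of drug addition are not mentioned in the labels. The p-values therefore cover the variation among these 6 libraries, part or all of which may be technical. The cells are 1 line in culture, without nerve or vessel.

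Guidance proteins steer growing axons, vessels and migrating cells by attraction or repulsion. Ephrins are ligands held on the surface of neighbouring cells, the A type by a lipid anchor and the B type by a transmembrane segment, and their Eph receptors are tyrosine kinases that signal on cell contact, usually by loosening adhesion and reshaping the actin cytoskeleton. Slits are secreted repellents read by Robo receptors, while netrins are laminin-related secreted proteins read by Dcc, neogenin and the Unc5 receptors. Repulsive guidance molecules bind neogenin and also act as co-receptors for bone morphogenetic proteins (BMPs). In muscle these families are known from the patterning of motor nerves on muscle fibres and from contact between myoblasts, where mouse neogenin and its partner Cdon promote myotube formation.

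Gene counts summed to 24566768 to 32406563 per lenvatinib library and 25529288 to 28886472 per control library. The guidance genes took 0.141 to 0.143% of the counts in lenvatinib libraries and 0.146% in each control library. Expression is given as CPM, read counts scaled to each library's total with TMM factors, and a level set between genes as CPM per kilobase of the deposited feature length. Fold changes are lenvatinib over control on the log2 scale ± SE (n = 3 libraries per group), and adjusted p-values are those of edgeR's quasi-likelihood test with Benjamini-Hochberg adjustment over all 14989 tested rows. The defining muscle genes were abundant, with a summed level of 16976 to 17033 CPM over 7 markers in lenvatinib libraries and 16213 to 16786 CPM in controls. Of these, 4 rose (Myog by 0.27, Mymk by 0.17, Ckm by 0.15 and Myh3 by 0.10 on the log2 scale), Des fell by 0.19, and Tnnt3 and Mylpf did not pass. Of 7 endothelial markers 5 were under the filter, Tie1 and Emcn at 0 among them, and the list summed to 2.10 to 2.50 CPM with lenvatinib and 1.88 to 2.48 CPM in controls. Tubb3 of the neuronal list was not found by symbol. Of the 6 neuronal markers found, only Map2 (16.9 CPM with lenvatinib and 22.02 CPM in controls, called lower) was above 1 CPM. The 6 glial markers together reached at most 0.777 CPM with lenvatinib and 1.33 CPM in controls. The 6 macrophage markers summed to 4.36 to 4.85 CPM with lenvatinib and 5.53 to 6.81 CPM in controls. Most of that sum was Cd14, which fell (3.52 CPM with lenvatinib and 5.12 CPM in controls). Adgre1 was at 0 throughout, and Ptprc and Csf1r were under the filter. Fibroblast markers summed to 856 to 949 CPM with lenvatinib and 790.4 to 826 CPM in controls (of 7, 3 rose and 2 fell), and 6 satellite or reserve cell markers, Calcr at 0 among them, to 350.1 to 359 CPM and 360.3 to 378 CPM (2 rose and 1 fell). Most of the fibroblast sum was Col1a1, which rose (615 CPM with lenvatinib and 483 CPM in controls), and Pdpn, which fell (220 and 263 CPM). Thy1 was under the filter. Beside these marker calls, 13.3% of all tested rows were called higher and 14.9% lower. The part of the marker shifts in the guidance gene values was not tested. In such bulk samples fewer cells of a type and less RNA per cell cannot be told apart.

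The comparison asks which guidance transcripts differed between lenvatinib-treated and control cells. Of the 29 tested guidance genes 16 passed an adjusted p of 0.05, beside 28.2% of all tested rows. Lower calls numbered 10, beside 14.9% of all rows, and higher calls 6, beside 13.3% of all rows. Without lenvatinib replicate 2 only 3 guidance genes were called higher, Ephb3, Ntn1 and Robo1, and without control replicate 1 or control replicate 2 the number was 4. The groups did not overlap for 17 guidance genes (10 with every lenvatinib library below and 7 with every lenvatinib library above the controls), where 40.1% of all tested rows did so (20.5% below and 19.6% above). The median log2 fold change of the tested guidance genes was 0.01, that of all rows 0.00, and the median absolute value was 0.15 among guidance genes and 0.12 among all rows. At least a 2-fold fall was called for Epha3 and Unc5c, against 1.85% of all rows. Membership was by name, so a share above the background describes these 43 rows and was not tested as a property of guidance genes. Epha3 passed the filter with 3 control and 2 lenvatinib libraries, while each other tested member passed it in all 6 libraries.

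**Figure D1:**
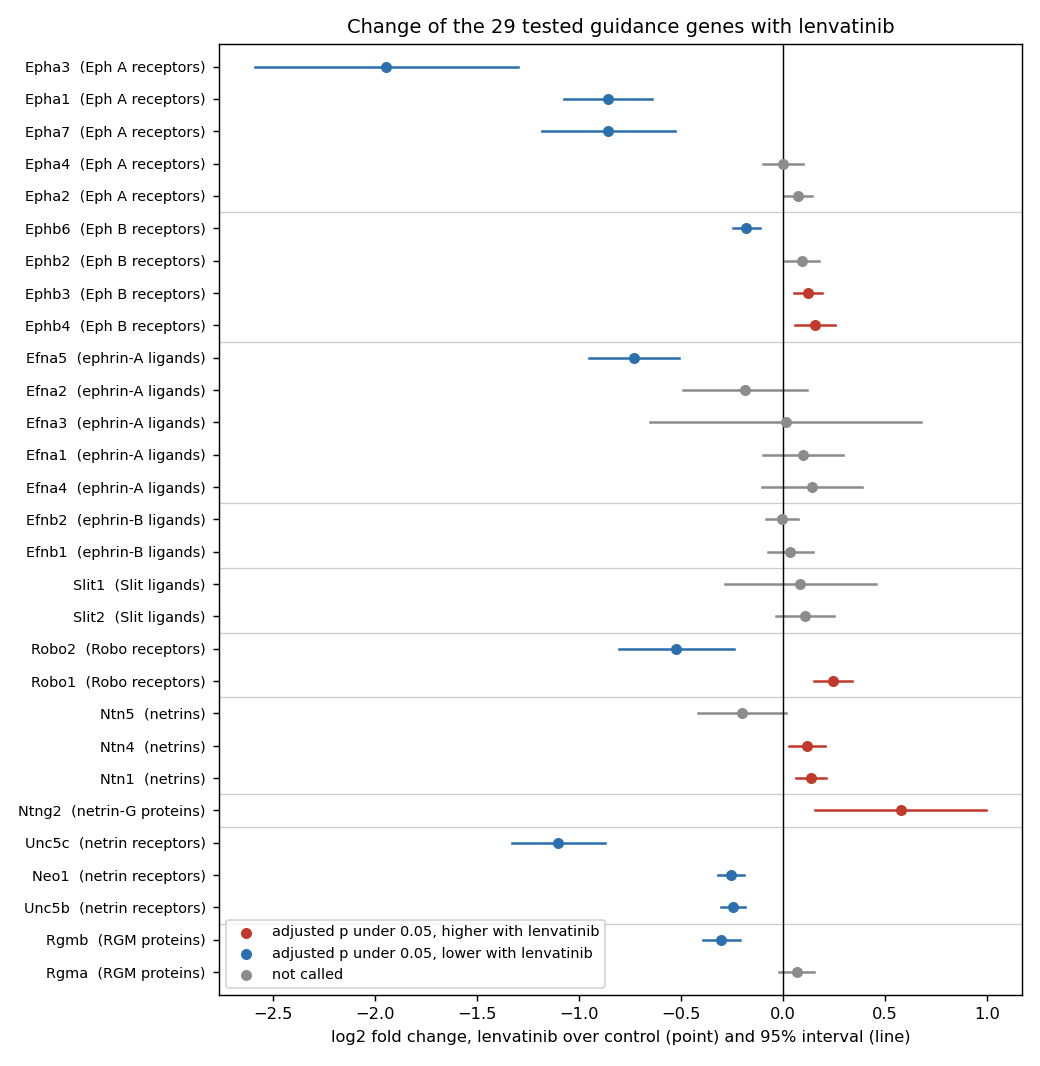
Log2 fold change, lenvatinib over control, of the 29 tested guidance genes (points) with the 95% interval of the edgeR fit (lines), grouped by protein class; red marks genes called higher, blue genes called lower and grey genes not called. All 3 tested netrin receptors and 3 of 5 tested Eph A receptors lie left of 0, as do 49.3% of all tested rows. The interval of Efnb2 spans -0.08 to 0.07.

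The sequence before the start is shown for the 5 genes that fell at least 1.5-fold, described with their values in the paragraphs that follow, so that their promoters can be compared. The bases are the 250 before the annotated start from RefSeq (GRCm38.p6), written 5′ to 3′ on the gene's strand; for Epha7, which has more than 1 annotated start, the most upstream window is printed. Windows are chr16:63864176-63864425 (minus strand) for Epha3, chr3:141465314-141465563 (plus strand) for Unc5c, chr6:42373269-42373518 (minus strand) for Epha1, chr4:28812881-28813130 (plus strand) for Epha7 and chr17:62881318-62881567 (minus strand) for Efna5. Capitals mark matches on either strand to 6 motifs. These are the TATA box with the letters TATAAA, the box spelled CCAAT, the GC box with the letters GGGCGG, the E-box spelled CAGCTG that myogenic factors can bind, the AP-1 motif spelled TGANTCA and the ETS motif spelled CCGGAA.
Epha3: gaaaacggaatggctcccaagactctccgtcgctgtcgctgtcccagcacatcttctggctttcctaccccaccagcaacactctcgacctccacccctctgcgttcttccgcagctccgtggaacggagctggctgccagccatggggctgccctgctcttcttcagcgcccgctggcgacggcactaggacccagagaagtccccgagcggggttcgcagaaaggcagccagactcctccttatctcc
Unc5c: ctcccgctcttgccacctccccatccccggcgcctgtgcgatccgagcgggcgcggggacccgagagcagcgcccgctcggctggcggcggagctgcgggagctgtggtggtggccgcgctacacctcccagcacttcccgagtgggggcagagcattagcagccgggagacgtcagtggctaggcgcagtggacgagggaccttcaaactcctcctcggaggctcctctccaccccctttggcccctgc
Epha1: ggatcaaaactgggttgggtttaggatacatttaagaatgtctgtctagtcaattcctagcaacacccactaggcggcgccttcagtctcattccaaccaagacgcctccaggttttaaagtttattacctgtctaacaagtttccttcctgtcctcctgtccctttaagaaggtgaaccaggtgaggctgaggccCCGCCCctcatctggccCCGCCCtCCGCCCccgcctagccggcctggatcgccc
Epha7: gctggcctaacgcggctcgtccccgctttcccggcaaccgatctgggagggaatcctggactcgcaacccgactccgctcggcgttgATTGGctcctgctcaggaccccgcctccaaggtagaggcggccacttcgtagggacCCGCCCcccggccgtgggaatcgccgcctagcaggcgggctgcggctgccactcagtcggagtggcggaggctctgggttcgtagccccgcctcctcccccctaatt
Efna5: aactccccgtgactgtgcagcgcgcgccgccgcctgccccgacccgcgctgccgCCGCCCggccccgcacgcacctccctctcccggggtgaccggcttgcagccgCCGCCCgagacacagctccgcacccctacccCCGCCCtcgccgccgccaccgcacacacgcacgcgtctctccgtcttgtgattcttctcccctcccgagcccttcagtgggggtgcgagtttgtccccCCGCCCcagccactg

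The GC box was found in the windows of Epha1 (3 matches), Epha7 (1 match) and Efna5 (4 matches), and the CCAAT box in that of Epha7 (1 match, read on the opposite strand as ATTGG). No match overlapped another. None of the 6 motifs was in the windows of Epha3 and Unc5c, and none of the 5 windows held the TATA box, the E-box, the AP-1 motif or the ETS motif. Among all 32851 promoter windows of the same length 32.7% held the GC box, 33.9% the CCAAT box, 12.4% the TATA box, 13.001% the E-box, 6.75% the AP-1 motif and 12.03% the ETS motif. Of the 21 other tested guidance genes with a window, taking the first window of each, 13 held the GC box and 9 the CCAAT box. The GC content of the 5 windows was 54.4 to 74.8%, with a median of 69.2%. The median was 64.8% in those 21 other genes and 52.4% over all windows. Matched by symbol, 37 of the 43 genes had a window.

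Eph A receptors, which mainly bind lipid-anchored ephrins, changed in 3 of 5 tested members, all lower, beside 14.9% of all tested rows called lower. Epha3, on chromosome 16 from 63363897 to 63684538 (positions here and below are those of the deposited table, which names no build), had 0.404, 0.450 and 0.340 CPM in the lenvatinib libraries (10, 11 and 11 counts), against 1.28, 2.08 and 1.25 CPM in the controls (34, 53 and 36 counts). Every lenvatinib library lay below every control, and the second control stood above the other controls. This was the largest fall among the 29 tested genes, 3.85-fold (-1.94 ± 0.32, adjusted p = 5.05e-06), on few counts. Epha3 met the filter in 3 control and 2 lenvatinib libraries, so its entry into the test depended on the group where it was higher. Epha7, which in mouse myoblasts is known to act in differentiation through cell contact, lies on chromosome 4 from 28813131 to 28967499. It had 2.26, 2.41 and 2.10 CPM with lenvatinib, against 4.51, 4.27 and 3.48 CPM in controls. The groups did not overlap, and the fall was 1.81-fold (-0.86 ± 0.16, adjusted p = 4.57e-05).

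Epha1, on chromosome 6 from 42335421 to 42350202, had 6.22, 5.24 and 7.66 CPM with lenvatinib, against 11.2, 12.2 and 11.6 CPM in controls. All lenvatinib libraries were lower than all controls and more spread than they were, and the fall was 1.81-fold (-0.86 ± 0.11, adjusted p = 2.84e-08). The row of Epha1 overlaps that of Zyx, which encodes the focal adhesion protein zyxin, on the opposite strand; in the GENCODE annotation of GRCm38 the genes share 236 exonic bases of the 3928 of Epha1. Zyx itself averaged 510.1 ± 19.3 CPM with lenvatinib and 566 ± 20.3 CPM in controls (-0.15 ± 0.03, adjusted p = 0.000121). No source used here gives the strand setting for the read counting, so reads of Zyx and Epha1 in the shared bases cannot be told apart.

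The abundant Eph A receptors did not pass the test. Epha2, the main receptor of ephrin-A1, had 114, 119 and 110.2 CPM with lenvatinib, against 108, 111 and 107 CPM in controls. The groups overlapped (0.07 ± 0.03, adjusted p = 0.112), and the 95% interval of 0.00 to 0.14 holds no change above 1.103-fold. Epha4, a receptor that binds ephrins of both types, averaged 41.2 ± 1.85 CPM with lenvatinib and 41.2 ± 0.557 CPM in controls (SD, n = 3 each), with an interval of -0.10 to 0.10 (adjusted p = 0.993). The 4 other Eph A receptors, Epha5, Epha6, Epha8 and Epha10, had 0 counts in all 6 libraries, where 3 counts in a library correspond to 0.0927 to 0.123 CPM.

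Eph B receptors, which mainly bind transmembrane ephrins, moved in both directions. Ephb6, whose kinase domain is catalytically inactive, was the most abundant Eph transcript per kilobase. It had 153, 147 and 143 CPM with lenvatinib, against 161, 173 and 168 CPM in controls. All lenvatinib libraries were below the controls, a fall of 1.13-fold (-0.18 ± 0.03, adjusted p = 2.24e-05). Ephb3 had 121, 128 and 128 CPM with lenvatinib, against 112, 120.4 and 115 CPM in controls. The highest control came close to the lowest lenvatinib library without crossing it, and Ephb3 rose by 1.09-fold (0.12 ± 0.03, adjusted p = 0.00521). Ephb4, the receptor of ephrin-B2 on veins, had 43.9, 46.5 and 43.2 CPM with lenvatinib, against 39.4, 41.7 and 38.8 CPM in controls. It rose by 1.11-fold (0.15 ± 0.05, adjusted p = 0.013), without overlap of the groups. The rise of Ephb3 was not called without the first control library (adjusted p = 0.0515), and that of Ephb4 not without the second lenvatinib library (adjusted p = 0.091) or control replicate 3 (adjusted p = 0.0708). Ephb2 averaged 58.3 ± 1.73 CPM with lenvatinib and 54.7 ± 0.395 CPM in controls (SD, n = 3 each); every lenvatinib library was above every control, but the gene did not pass the test (0.09 ± 0.04, adjusted p = 0.0918). Ephb1 had 2 to 5 counts per lenvatinib library and 3 to 4 per control library and was not tested.

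Of the ephrin-A ligands 1 of 5 changed, beside 28.2% of all tested rows. Efna5, a ligand of Epha3 and Epha7 that lies on chromosome 17 from 62911179 to 63188312, had 4.97, 5.89 and 6.40 CPM with lenvatinib, against 10.4, 8.66 and 9.73 CPM in controls. The groups were clearly apart, and the fall was 1.66-fold (-0.73 ± 0.11, adjusted p = 9.31e-07). Efna1, the ephrin-A with the highest level per kilobase, had 8.57, 9.21 and 8.40 CPM with lenvatinib, against 7.97, 8.66 and 7.82 CPM in controls. The groups overlapped (0.10 ± 0.10, adjusted p = 0.513; 95% interval -0.10 to 0.29). Efna3, which in mice is known to keep some motor nerves off slow muscle fibres, was near the filter at 0.750 ± 0.336 CPM with lenvatinib and 0.775 ± 0.220 CPM in controls (SD, n = 3 each). Its 95% interval of -0.65 to 0.68 does not exclude changes up to about 1.6-fold either way at this depth. Efna2 (adjusted p = 0.393) and Efna4 (adjusted p = 0.429) had means of 4.14 and 5.50 CPM with lenvatinib and 4.72 and 5.02 CPM in controls.

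Neither tested ephrin-B ligand was called, and the intervals were narrow. Efnb2, the ligand of Ephb4, had 69.3, 68.4 and 66.2 CPM with lenvatinib, against 69.8, 67.3 and 67.1 CPM in controls. The libraries of both groups lay among each other (-0.00 ± 0.04, adjusted p = 0.954), with a 95% interval of -0.08 to 0.07. Efnb1 averaged 31.5 ± 0.411 CPM with lenvatinib and 30.7 ± 1.67 CPM in controls (SD, n = 3 each; adjusted p = 0.69). Efnb3 had 7 to 12 counts per lenvatinib library and 5 to 12 per control library, too few for the filter.

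**Figure D2:**
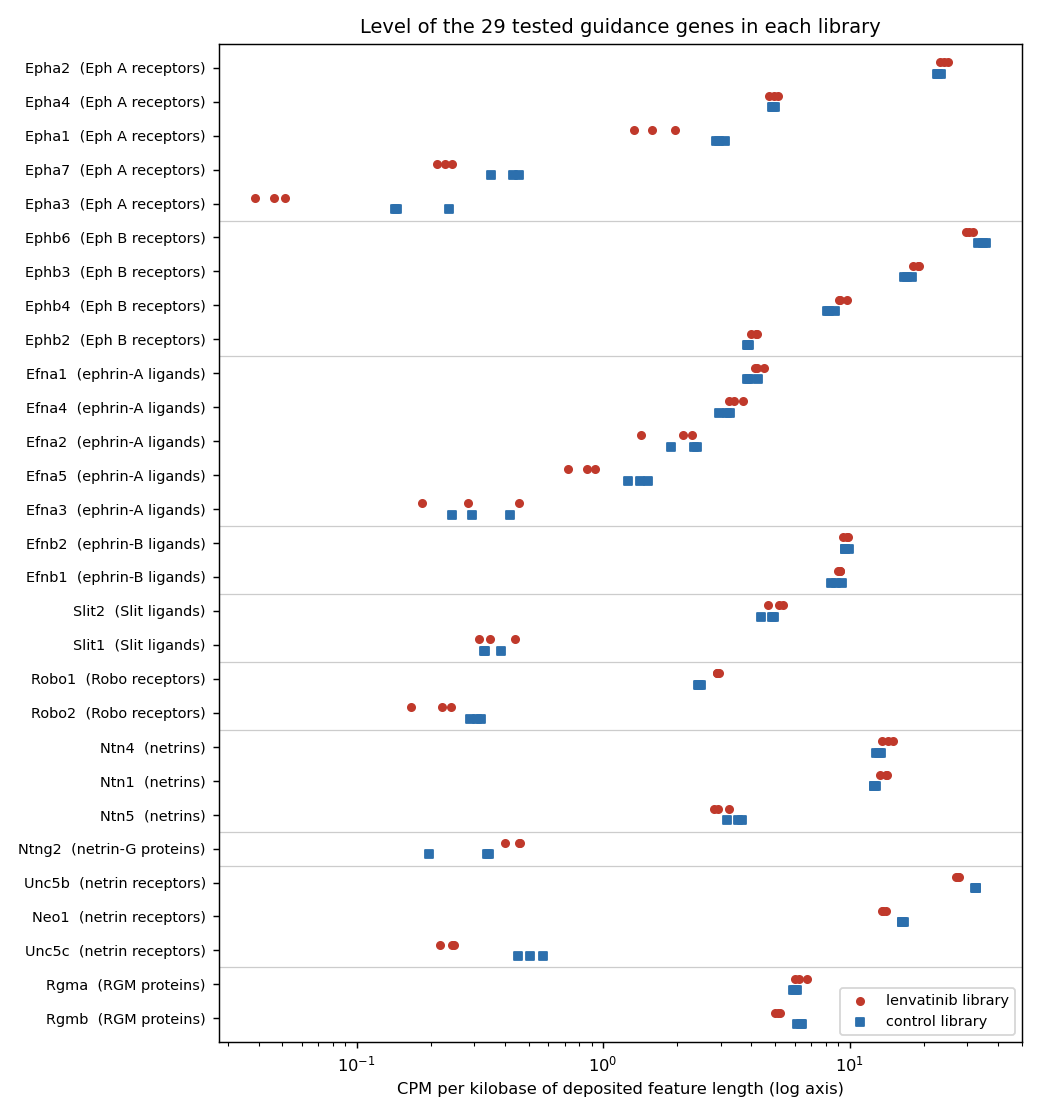
CPM per kilobase of deposited feature length (log axis) of the 29 tested guidance genes in each lenvatinib library (red circles, upper) and control library (blue squares, lower), ordered by level within each class. Ephb6, Unc5b and Epha2 are the highest, at means of 32.6, 29.99 and 23.6 CPM per kilobase over the 6 libraries, and Epha3 the lowest, at 0.110 CPM per kilobase.

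The Slit genes were not called and the Robo genes went opposite ways. Slit2, the more abundant Slit, had 121, 133 and 138 CPM with lenvatinib, against 125, 113 and 127 CPM in controls. The groups overlapped (0.11 ± 0.06, adjusted p = 0.263); without the first lenvatinib library the gene was called higher (0.16, adjusted p = 0.00328), and so it was with no filter on low counts (0.11, adjusted p = 0.00686). Slit1 averaged 2.38 ± 0.412 CPM with lenvatinib and 2.27 ± 0.204 CPM in controls (SD, n = 3 each; adjusted p = 0.787), and Slit3 had a single count in 1 lenvatinib library.

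Robo1, on chromosome 16 from 72105194 to 72842983, had 48.4, 49.3 and 48.3 CPM with lenvatinib, against 41.1, 41.8 and 40.5 CPM in controls. Replicates differed little and the groups were well apart, and Robo1 rose by 1.18-fold (0.24 ± 0.05, adjusted p = 3.79e-05). Robo2 had 2.83, 3.76 and 4.11 CPM with lenvatinib, against 5.42, 5.21 and 4.90 CPM in controls. Every lenvatinib library was below the controls, the first of them most, and Robo2 fell by 1.44-fold (-0.52 ± 0.14, adjusted p = 0.00344). Without that first lenvatinib library the log2 fold change was -0.39, just within the threshold (adjusted p = 0.0466). The receptors are 845743 bases apart on chromosome 16. Robo3 had 1 count in 1 lenvatinib library, and Robo4, the Robo of vascular endothelium, had 0 counts in all 6 libraries.

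Of the 3 tested netrins, Ntn1 and Ntn4 were called higher and Ntn5 was not called. Over all tested rows 13.3% were called higher. Ntn1, the founding axon attractant, had 92.0, 91.1 and 86.3 CPM with lenvatinib, against 81.3, 82.7 and 81.0 CPM in controls. All lenvatinib libraries were above the controls (1.098-fold, 0.14 ± 0.04, adjusted p = 0.00327). Ntn4, a basement membrane netrin that binds laminins, had 56.7, 59.2 and 53.5 CPM with lenvatinib, against 52.0, 50.6 and 53.2 CPM in controls. The lowest lenvatinib library barely cleared the highest control, and the rise of 1.09-fold (0.12 ± 0.04, adjusted p = 0.0388) lost its call without the first or second lenvatinib library (adjusted p = 0.0821 and 0.224), without the first or second control library (adjusted p = 0.0797 and 0.136), with DESeq2 (adjusted p = 0.115) and with limma-voom (adjusted p = 0.0669). Ntn5 averaged 6.78 ± 0.521 CPM with lenvatinib and 7.81 ± 0.534 CPM in controls (SD, n = 3 each) and did not pass (-0.20 ± 0.11, adjusted p = 0.169); its row overlaps Sec1 on the opposite strand. Ntn3 had 0 to 3 counts per lenvatinib library and 0 to 1 per control library.

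Ntng2, which encodes the lipid-anchored synaptic protein netrin-G2, had 2.22, 2.54 and 2.56 CPM with lenvatinib, against 1.92, 1.10 and 1.88 CPM in controls. The second control was lowest and the groups did not overlap (1.49-fold, 0.58 ± 0.21, adjusted p = 0.032). Without that second control library the rise was 0.37 (adjusted p = 0.216), without lenvatinib replicate 2 or lenvatinib replicate 3 it was 0.55 or 0.53 (adjusted p = 0.0756 and 0.0992), and with DESeq2 the adjusted p was 0.0994. The row overlaps 6530402F18Rik on the same strand, with 558 shared exonic bases of the 3990 of Ntng2 in the GENCODE annotation; that row was at 2.48 ± 0.0765 CPM with lenvatinib and 3.54 ± 0.236 CPM in controls (-0.51 ± 0.16, adjusted p = 0.0113). Ntng1 had 0 counts in all 6 libraries.

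All 3 tested netrin receptors were called lower, beside 14.9% of all tested rows. A class this small was not tested as a class. Unc5b, a repulsive netrin receptor, had 172, 177 and 176 CPM with lenvatinib, against 208, 208 and 207 CPM in controls. The control values were nearly identical and all above the lenvatinib values, and Unc5b fell by 1.19-fold (-0.25 ± 0.03, adjusted p = 4.39e-09). Neo1, the receptor that netrins and repulsive guidance molecules share, lies on chromosome 9 from 58781970 to 58943724. It had 128, 127 and 131 CPM with lenvatinib, against 154, 153 and 156 CPM in controls. The gap between the groups was larger than either group's spread, and Neo1 fell by 1.19-fold (-0.26 ± 0.03, adjusted p = 8.8e-09).

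Unc5c, the less abundant relative of Unc5b, lies on chromosome 3 from 141170977 to 141540685. It had 4.20, 4.71 and 4.79 CPM with lenvatinib, against 11.02, 8.74 and 9.73 CPM in controls. Its p was the smallest of the guidance genes, with no overlap of the groups and a fall of 2.15-fold (-1.10 ± 0.11, adjusted p = 1.74e-10). The other receptors of this class were at or near 0: Dcc and Unc5d had 0 counts in all libraries, and Unc5a had 5 to 9 counts per lenvatinib library and 1 to 6 per control library. Summed over the class, the level was 41.5 ± 0.474 CPM per kilobase with lenvatinib and 49.5 ± 0.111 CPM per kilobase in controls (SD, n = 3 each), nearly all of it from Unc5b and Neo1.

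The repulsive guidance molecules in the symbol rule, Rgmb and Rgma, are ligands of neogenin and differed from each other. Rgmb had 40.9, 40.1 and 41.8 CPM with lenvatinib, against 51.1, 51.4 and 49.2 CPM in controls. The groups were far apart relative to their spread, and Rgmb fell by 1.23-fold (-0.30 ± 0.05, adjusted p = 9.34e-07). Rgma had 58.1, 64.6 and 60.0 CPM with lenvatinib, against 58.0, 56.9 and 59.3 CPM in controls. The groups overlapped (0.07 ± 0.04, adjusted p = 0.256; 95% interval -0.02 to 0.15). The row of Rgma touches A730056A06Rik on the opposite strand, which had 1.92 to 2.44 CPM with lenvatinib and 2.05 to 2.23 CPM in controls. Hjv, a related gene outside the symbol rule, was read with the partners below. It averaged 331 ± 5.80 CPM with lenvatinib and 301 ± 8.23 CPM in controls (SD, n = 3 each) and rose (0.14 ± 0.03, adjusted p = 0.000157). The level of Hjv was 153 CPM per kilobase over the 6 libraries, above those of Rgma and Rgmb.

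**Figure D3:**
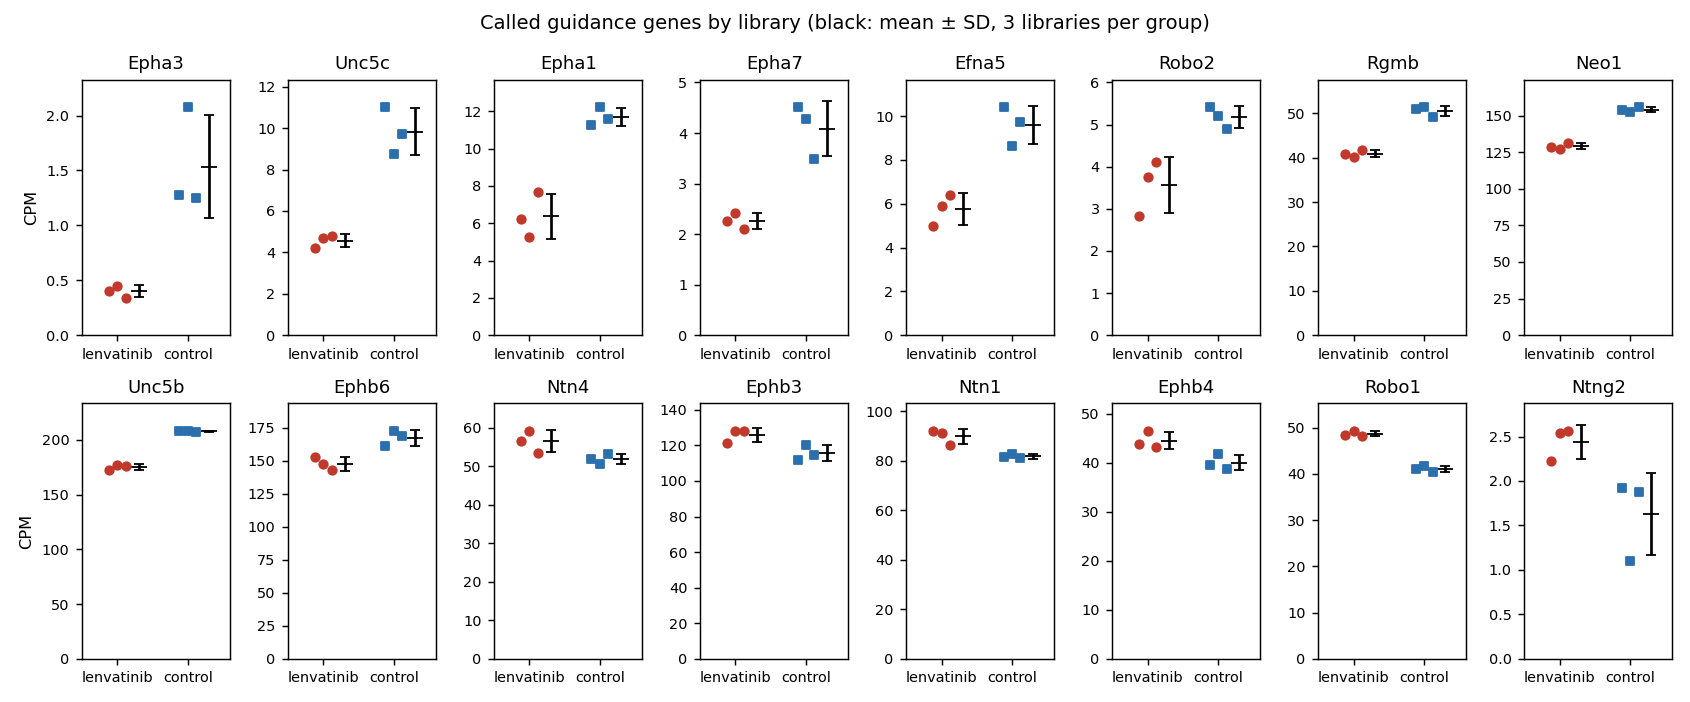
CPM of the 16 called guidance genes in each lenvatinib library (red circles, left) and control library (blue squares, right), with mean ± SD over 3 libraries in black; each vertical axis starts at 0. The first 10 panels, Epha3 to Ephb6, have every lenvatinib library below every control, and the last 6, Ntn4 to Ntng2, every lenvatinib library above.

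**Figure D4:**
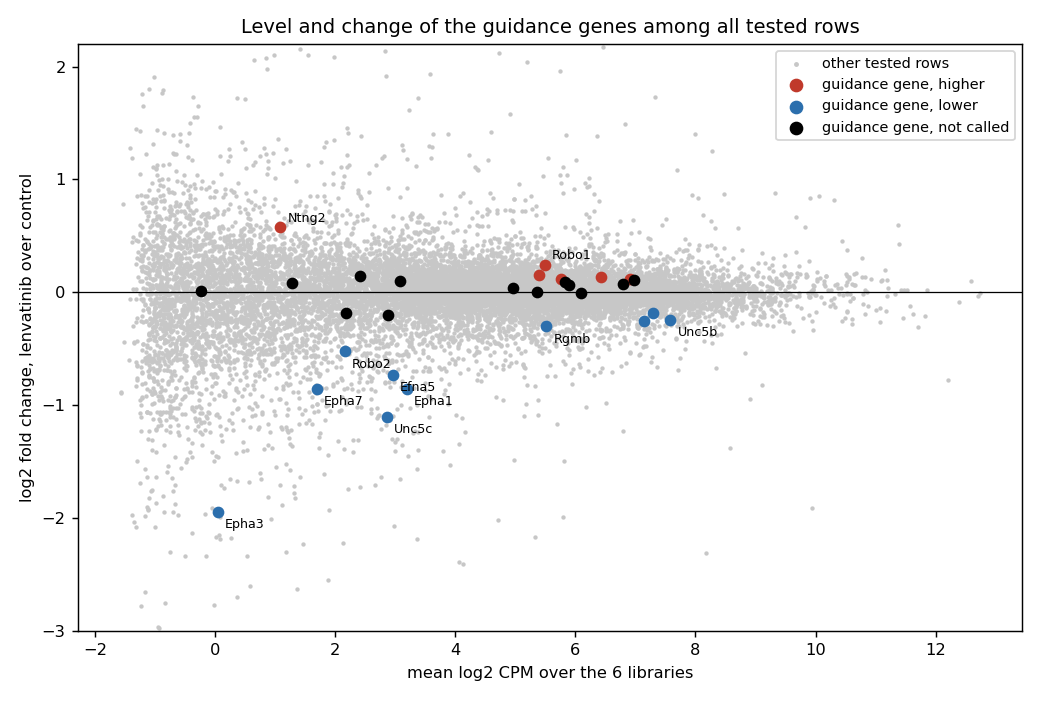
Mean log2 CPM over the 6 libraries (horizontal axis) and log2 fold change, lenvatinib over control (vertical axis), of all tested rows (grey) and of the guidance genes called higher (red), lower (blue) or not called (black); 19 rows lie outside the vertical axis. Epha3, Unc5c, Epha1, Epha7, Efna5 and Robo2 lie low and to the left, while guidance genes above 30 CPM stay between -0.30 and 0.24 on the log2 scale.

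Level and change differed between the lower calls. Epha3, Epha7, Robo2, Efna5, Unc5c and Epha1 averaged 0.398 to 6.37 CPM with lenvatinib and 1.54 to 11.7 CPM in controls and fell by 0.52 to 1.94 on the log2 scale, with an SE of 0.11 to 0.32. Rgmb, Neo1, Ephb6 and Unc5b averaged 40.9 to 175 CPM with lenvatinib and 50.5 to 208 CPM in controls and fell by 0.18 to 0.30, with an SE of 0.03 to 0.05. Only called genes are set side by side here, and a gene with a larger SE needs a larger change for a call. The low-level genes not called, Efna1, Efna2, Efna3, Efna4, Slit1 and Ntn5, lay between -0.20 and 0.14.

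Within each library the count of a gene was also set against that of a relative, which needs no scaling between libraries. The 6 pairs were chosen with the fold changes known, so the ratios are a description. Robo2 reached 5.84, 7.63 and 8.504% of the counts of Robo1 with lenvatinib, against 13.2, 12.5 and 12.1% in controls. Unc5c reached 2.44, 2.65 and 2.72% of Unc5b with lenvatinib, against 5.30, 4.19 and 4.704% in controls. Both minor receptors thus had a lower count ratio in every lenvatinib library than in any control. The first gene of each pair had already been called lower, so lower ratios were largely built into the choice. Robo1 and Ephb3, used as the second gene, were themselves called higher, so their ratios hold both changes. Counts were not corrected for gene length, so the ratios are not shares of transcripts. Epha1 reached 4.42 to 6.95% of Epha2 with lenvatinib, against 10.4 to 11.02% in controls. Rgmb reached 62.1 to 70.4% of Rgma with lenvatinib, against 82.9 to 90.4% in controls. Ephb6 had more counts than Ephb3 in every library, but less so with lenvatinib (112 to 126%) than in controls (143 to 146%). Efna5 reached 58.0 to 76.1% of Efna1 with lenvatinib, against 100 to 131% in controls.

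**Figure D5:**
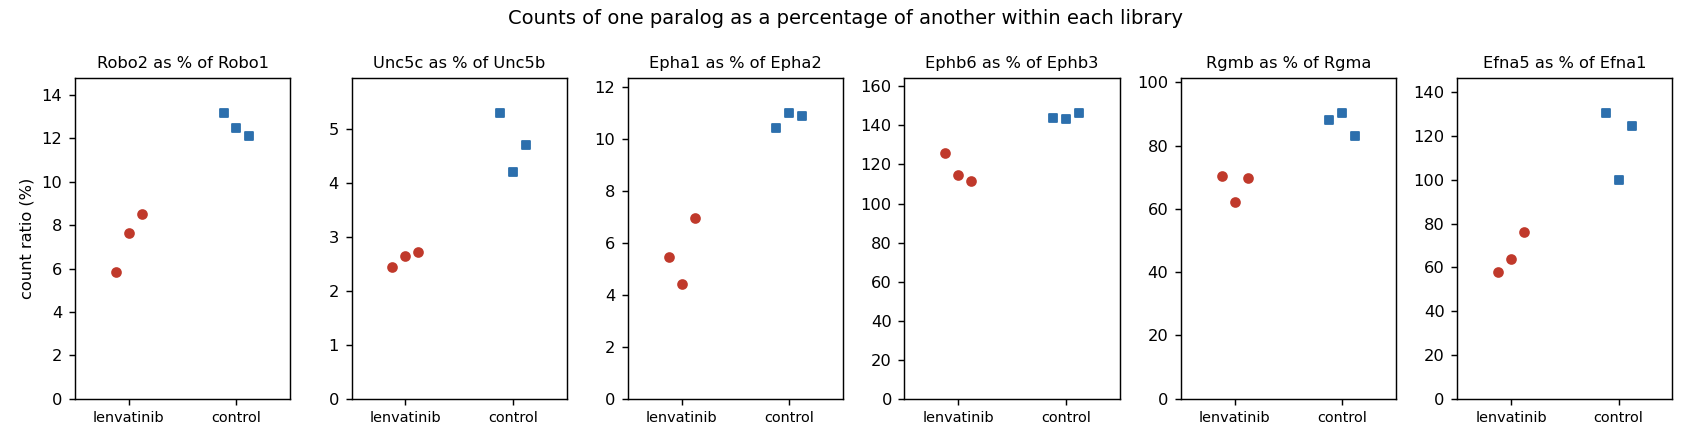
Counts of 1 gene as a percentage of those of a relative within each lenvatinib library (red circles, left) and control library (blue squares, right), for 6 pairs; axes start at 0. In each pair the 3 lenvatinib libraries lie below the 3 controls, for Robo2 against Robo1 at 5.84 to 8.504% with lenvatinib and 12.1 to 13.2% in controls.

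Set in order of level per kilobase over the 6 libraries, the Eph B receptors ran Ephb6, Ephb3, Ephb4 and Ephb2 without overlap of neighbouring ranges. Orders and class sums of this kind rest on the deposited lengths. In CPM, Ephb2 (58.3 with lenvatinib and 54.7 in controls) stood above Ephb4 (44.5 with lenvatinib and 40.0 in controls). The Eph A receptors ran Epha2, Epha4, Epha1, Epha7 and Epha3, of which only Epha7 and Epha3 overlapped in range. Among the netrins, Ntn4 and Ntn1 overlapped, at means of 13.7 and 13.3 CPM per kilobase, and Ntn5 was lower at 3.23. Rgma and Rgmb overlapped as well, at 6.17 and 5.71 CPM per kilobase, as did the ranges of Efna2 and Efna5. These ranges pool both groups and so include the change with lenvatinib. Rgma and Rgmb averaged 6.31 and 5.11 CPM per kilobase with lenvatinib, against 6.02 and 6.31 in controls. In group means Epha7 stood above Epha3, and Efna2 above Efna5, both with lenvatinib and in controls. The deposited length of Rgma is 9651 bases, where its exons in the GENCODE annotation of GRCm38 cover 5544. By summed level, Eph B receptors were the most abundant class (62.8 ± 0.788 CPM per kilobase with lenvatinib and 64.1 ± 2.07 in controls; SD, n = 3 each) and exceeded the ephrin-B ligands (18.9 ± 0.373 with lenvatinib and 18.6 ± 0.669 in controls). The Robo receptors summed to 3.12 ± 0.0568 CPM per kilobase with lenvatinib and 2.76 ± 0.0496 in controls, the rise of Robo1 outweighing the fall of the scarcer Robo2.

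Some guidance genes are neighbours. Efna1, Efna3 and Efna4 lie in a row on chromosome 3, with gaps of 32756 and 10424 bases, and none of them was called. Ephb2, abundant here, lies 93430 bases from Epha8, which had no count. Ephb6 and Epha1, both lower with lenvatinib, are 737977 bases apart on chromosome 6. Robo4 and Robo3, 553 bases apart on chromosome 9, had 0 and 1 counts in all libraries together.

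Partners of these families were read from a list of 63 genes, of which 57 were tested. The list mixes signalling proteins inside the cell with other ligands, co-receptors and proteoglycans. Of the 57 tested partners 17 fell, beside 14.9% of all tested rows, and 7 rose, beside 13.3% of all tested rows. The other 33 did not pass, and the median log2 fold change was -0.01, beside 0.00 over all rows. The share called, 42.1%, stands beside 28.2% of all tested rows. Lower calls numbered 13 to 17 across the alternatives and higher calls 6 to 7. Rasa1, a Ras GTPase-activating protein that binds activated EphB receptors, averaged 128 ± 4.35 CPM with lenvatinib and 202 ± 3.98 CPM in controls (SD, n = 3 each; -0.66 ± 0.03, adjusted p = 8.04e-21). Adgrl3, a latrophilin that binds Unc5 receptors together with Flrt proteins, averaged 58.8 ± 2.03 CPM with lenvatinib and 88.5 ± 3.38 CPM in controls (-0.59 ± 0.04, adjusted p = 7.21e-16). Ngef, the Eph-coupled exchange factor ephexin, averaged 19.1 ± 0.807 CPM with lenvatinib and 27.0 ± 1.58 CPM in controls (-0.50 ± 0.06, adjusted p = 2.82e-08). These 3 fell in every lenvatinib library relative to every control.

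Of the 8 partners with the smallest p, 4 more fell. The kinase Pak1, an effector of Rac and Cdc42, fell by 0.32 on the log2 scale (adjusted p = 9.11e-10). Trio, an exchange factor used by Dcc, fell by 0.28 (adjusted p = 2.44e-08), though Dcc itself had 0 counts in all libraries. The actin-binding Ablim3 fell by 0.27 (adjusted p = 1.55e-08), and the heparan sulfate proteoglycan Sdc1 by 0.24 (adjusted p = 6.54e-08). Cdon, the co-receptor of neogenin in myoblasts, averaged 692 ± 10.9 CPM with lenvatinib and 561 ± 10.96 CPM in controls (SD, n = 3 each) and rose by 0.30 ± 0.03 (adjusted p = 2.19e-12), while Neo1 itself fell. The GTPases Rac1, Cdc42 and Rhoa did not pass the test, with log2 fold changes of 0.01, 0.02 and 0.00.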

How the data were processed

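The authors deposited whole-number read counts per gene row for 6 libraries, not normalized. Alignment used Hisat2 2.0.1 (per the labels' protocols), and HTSeq 0.6.1 and mm10 are named in the submitters' processing notes; no source used here gives the library kit, strand setting or read filters. Groups and numbers came from the titles. Deposited positions differ from GRCm38 (2.97% of 51863 shared identifiers have the same start and end), so they are printed without a build. The deposited feature length, read as bases, was used for levels per kilobase. It exceeds the gene's span in 585 rows, none of them a guidance gene.

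Here edgeR 4.0.16 in R 4.3.3 (TMM, filterByExpr with a minimum count of 10 and total of 15, robust glmQLFit, glmQLFTest) was run on the whole table, leaving 14989 rows. The steps were also run on simulated counts in which every row had the same dispersion and few rows changed. That setting is simpler than these data and does not give their error rates. SEs and 95% intervals derive from the F statistic and cover the spread between libraries. A floor of 3 counts reflects counting error alone, because PCR copies of 1 molecule cannot be recognised. Replicates differed by more than sampling noise (chi-square per degree of freedom 2.78 to 5.601). The members, gene lists and pairs were chosen with earlier results of these data known. Values per library are given for called members and for the most abundant member of each class. Of the partners, the 8 called genes with the smallest p are named, and Rac1, Cdc42, Rhoa and Hjv were added after their values were seen. Alternatives were RLE factors, library totals, no filter or 1 CPM in 3 libraries, DESeq2 1.42.0, limma-voom (limma 3.58.1), a replicate block, leaving out rows wider than the gene and leaving out each library.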

Additional observations from a re-analysis of the deposited data

How the results depend on the processing

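The 10 lower calls were the same 10 genes under all 14 alternatives. Robo2 came nearest to losing its call (adjusted p = 0.0466 without the first lenvatinib library). Higher calls numbered 3 to 6 when a library was left out, with 3 to 5 of the 6 genes kept: 3 without the second lenvatinib library, and 6 without the first, where Ntn4 was lost and Slit2 gained. They numbered 4 with DESeq2 and 7, with Slit2, with no filter. Of 224 recomputed values of called guidance genes 210 kept their call and 14 lost it, these in Ephb3, Ephb4, Ntn4 and Ntng2. Some genes that were not called changed sign without being called: Epha4 with limma-voom (-5.2e-05) and by leaving out a library (-0.028 to 0.032), Efna3 with DESeq2 (-0.0192), limma-voom (-0.041), the replicate block (-0.0118) and by leaving out a library (-0.43 to 0.26), Efnb2 with no filter (0.0018) and by leaving out a library (-0.0177 to 0.0161), and, by leaving out a library, Efnb1 (-0.0011 to 0.0768) and Slit1 (-0.0765 to 0.18). The cause was not tested.

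With the replicate number as a block 5 guidance genes were higher and 10 lower, Ntn4 losing its call (adjusted p = 0.0535), and over all rows 1952 were higher and 2182 lower. Same-numbered libraries did not deviate together (r from -0.08 to 0.02 over 10002 genes), so the number is not read as a pairing. Among the partners, lower calls numbered 13 without lenvatinib replicate 3 or control replicate 3, and 14 with DESeq2 or no filter; over the alternatives Abl2, Grip1, Nck1, Vasp, Srgap2 and Dscam lost their calls at least once. Low counts limit Epha3, Efna3, Ntng2 and the 14 genes not tested, for which a count near 0 does not show absence.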
